A study of Mus musculus with 12 samples.

Results

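The 6 genes described here are the tissue kallikrein genes Klk1, Klk1b21, Klk1b22, Klk1b24, Klk1b26 and Klk1b27 of the mouse, taken by symbol from the table of normalised counts, 6 of its 47730 features. Male mice aged 5 to 6 months on a C57BL/6J background were either wild type (Bckdk+/+) or homozygous for a mutant allele of the kinase gene Bckdk (BckdkM/M, called KO in the titles), and RNA was sequenced from gastrocnemius with plantaris muscle and from testis. The mice were freely fed and killed between ZT6 and ZT7, near the middle of the light period. The 12 libraries formed 4 groups of 3. Wild-type mice A to C gave muscle and testis, D and F gave muscle labelled mutant and testis labelled mutant, G gave only mutant muscle and E only testis, each letter replacing a mouse number of the column names. What change the mutant allele carries is not given in the sources used here. The libraries held 12852427 to 15795722 counted reads.

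Bckdk was nearly absent from mutant muscle, at 12.4 to 14.8 normalised counts against 2214 to 2627 in wild-type muscle. Testis labelled mutant had 114 to 138, above the 68.0 to 73.3 of wild-type testis, so the target gene goes against the label there and testis groups are named by label throughout. Other features differed in the same direction in both tissues. The resistance gene NeoR was at 1.76, 2.50 and 3.34 in wild-type testis against 13.1, 19.9 and 18.6 in testis labelled mutant, and at means of 3.12 and 242 in muscle. Rps13-ps1 had means of 27.1 and 337 in testis and 33.2 and 524 in muscle. By limma over all genes tested in testis, Rps13-ps1 was called, but Bckdk (adjusted p = 0.349) and NeoR (adjusted p = 0.374) were not. The 7 germ cell markers summed to 35185 to 51125 in the testis libraries and to 847 to 1629 in the muscle libraries. All 7 were above 0 in testis, but so were 6 or 7 in each muscle library. Wild-type testis A and B stand apart by their pancreatic islet genes, which summed to 20101 and 19954 there against 10985 to 14283 in the other testis libraries. Skeletal muscle genes summed to 142 in wild-type testis B and 5621 in A, against 11727 to 13155 in the rest. Wild-type testis B also held the epididymis genes Crisp1, at 211 against 0 to 2.49 in the other testis libraries, and Adam7, at 33.3 against 0 to 0.888. Of the 7 epididymis markers, Lcn5, Lcn8 and Spink11 were at 0 in wild-type testis B, and Defb15 was at its lowest, 5.83. Cst8 was at 2348 there against 2104 to 2545 in the other testis libraries. The 7 summed to 2598 against 2117 to 2573. Wild-type testis B had the highest wild-type values of Klk1b26 and Klk1b27, and the part of epididymis transcripts in them was not tested.

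Tissue kallikreins are secreted trypsin-like serine proteases. Klk1 releases kinins from kininogen, and kinins act on the receptors Bdkrb1 and Bdkrb2. In the mouse the Klk1 gene was duplicated many times, and most copies, the Klk1b genes, are best known from the granular duct cells of the submandibular gland, where androgens raise several of them. Klk1b22 and Klk1b26 are known as binding proteins or processing enzymes of epidermal growth factor. Klk1b21, Klk1b24 and Klk1b27 are known as kallikreins of the Leydig cells, the testosterone-making cells between the seminiferous tubules.

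All 6 genes lie on the forward strand of chromosome 7 between 44012168 and 44229618 in GRCm38, a stretch of 217 kb that is 83.7 Mb from Bckdk on the same chromosome. From the low to the high coordinate they stand in the order Klk1b26, Klk1b27, Klk1b21, Klk1b22, Klk1b24, Klk1, with other kallikrein genes between some of them. Their GENCODE M21 transcripts shared 85.1% to 94.1% of aligned bases over the 15 pairs, the highest share being that of Klk1b21 with Klk1b24. None of their windows of 150 bases, the read length, occurred letter for letter in a transcript of another gene, whereas 0.384% (Klk1b22) to 14.4% (Klk1 and Klk1b24) of their windows of 75 bases did. Full-length reads without errors could thus be told apart by sequence. How reads shared by several genes were counted is not given in the sources used here, and shorter or trimmed reads of these genes could be dropped or split.

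The upstream sequences of the 4 genes that were higher in every testis library labelled mutant are shown because these genes were the ones that differed between the testis groups. They come from the RefSeq promoter table on GRCm38.p6, in which all 6 genes were found, and end at the base before the GENCODE start. They run 5′ to 3′ on the forward strand, and the capitals mark the hexamer TTTAAA, which resembles the core promoter element named TATA box.
Klk1b21, chr7:44102042-44102327: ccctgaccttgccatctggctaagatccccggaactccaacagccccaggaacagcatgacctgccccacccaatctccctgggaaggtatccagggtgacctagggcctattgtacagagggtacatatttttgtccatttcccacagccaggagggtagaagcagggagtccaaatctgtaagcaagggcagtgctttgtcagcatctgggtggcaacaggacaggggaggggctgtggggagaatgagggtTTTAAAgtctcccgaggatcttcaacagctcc
Klk1b24, chr7:44187986-44188235: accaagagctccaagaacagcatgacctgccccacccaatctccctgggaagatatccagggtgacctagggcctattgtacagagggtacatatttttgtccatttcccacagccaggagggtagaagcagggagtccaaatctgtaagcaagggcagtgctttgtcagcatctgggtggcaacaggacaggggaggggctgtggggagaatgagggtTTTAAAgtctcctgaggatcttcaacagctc
Klk1b27, chr7:44052040-44052289: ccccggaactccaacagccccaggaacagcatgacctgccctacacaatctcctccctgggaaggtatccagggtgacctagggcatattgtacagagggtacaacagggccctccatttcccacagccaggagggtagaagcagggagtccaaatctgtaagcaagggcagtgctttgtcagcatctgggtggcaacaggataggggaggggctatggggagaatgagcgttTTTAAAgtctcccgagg
Klk1b22, chr7:44112423-44112672: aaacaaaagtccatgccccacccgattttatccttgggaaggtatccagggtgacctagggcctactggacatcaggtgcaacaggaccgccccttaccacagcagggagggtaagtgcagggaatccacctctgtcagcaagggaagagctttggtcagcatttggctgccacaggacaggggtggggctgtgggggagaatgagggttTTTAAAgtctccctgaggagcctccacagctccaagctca

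Over the whole 300-base windows of the table, Klk1b21 and Klk1b24 were 97.7% identical in their aligned bases and shared an unbroken run of 178 bases. Klk1b27 was 94.5% identical to Klk1b21 and 91.3% to Klk1b24. Klk1b22 was less alike, at 80.8% to Klk1b21, and the window of Klk1b26, a gene that was not higher in the libraries labelled mutant, was 86.7% identical to that of Klk1b21, above the figure for Klk1b22. The window of Klk1b26 starts at 44012428, past the GENCODE start of that gene at 44012168, so it is not upstream of the annotated gene. Klk1b24 had the smallest testis difference of the 4, and a link between the likeness of the windows and the testis differences was not tested.

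TTTAAA, which reads the same on both strands, occurred in the windows of all the members except Klk1. It occurred in 13.2% of the 32851 windows of the table. The windows of the other kallikrein genes Klk1b8, Klk1b1, Klk1b9, Klk1b11, Klk1b16, Klk1b3, Klk1b4 and Klk1b5 held it too. The match thus did not set the members apart from these genes. TTTAAA stood 32 bases before the GENCODE start of Klk1b21 and 31 before that of Klk1b24. It stood 17 before that of Klk1b27 and 40 before that of Klk1b22. For Klk1b26 the same count was -484, a position past the GENCODE start. Klk1 had no match in its window. An 8-base site of NR5A1, a regulator of steroid genes (CAAGGTCA, or TGACCTTG on the other strand), occurred in the windows of Klk1b21 and Klk1 and in 1.56% of all windows. In Klk1b21 the site lay 283 bases before the GENCODE start. The windows of Klk1b24, Klk1b27 and Klk1b22 reach only 250 bases before theirs, so that position was not searched there. The androgen receptor hexamer (AGAACA, or TGTTCT) occurred only in that of Klk1b24 among the 6, and in 19.0% of all windows. The GATA element (AGATAA, or TTATCT) occurred in none of the 6 and in 11.2% of all windows. The windows start at different distances from the genes, and a match is a description of letters only.

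The members were chosen on the values of these testis libraries, Klk1b21 having been called there over all genes tested. Their testis levels and differences are therefore given as a description, with no p. A normalised count is the number of reads over the size factor of its library, and differences are of log2(normalised count + 1), libraries labelled mutant minus wild type, with the SE of the fit over all genes and n = 3 libraries per group. Fewer cells of a type and less RNA per cell cannot be told apart in whole tissue.

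Klk1b21, Klk1b27, Klk1b22 and Klk1b24 were higher in all 3 testis libraries labelled mutant than in all 3 wild types, by 1.73 to 3.15 times in the group means. Klk1b26 and Klk1 overlapped between the groups. Of the 19543 genes tested in testis, 9.72% had all libraries labelled mutant above all wild types, and since the choice of members used this contrast nothing is read from 4 of 6.

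Klk1b21, a Leydig cell kallikrein, had 40.6, 39.1 and 30.9 normalised counts in the testes of wild-type mice A to C. The mice labelled mutant, D to F, had 123, 103 and 84.4. The lowest library labelled mutant was above the highest wild type with a wide gap. The means of 36.9 ± 5.23 and 103 ± 19.3 (SD) differed by 1.46 on the log2 scale (SE 0.20), a ratio of 2.80. Behind these values were 46, 47 and 37 reads in wild type and 122, 124 and 95 in the libraries labelled mutant.

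Klk1b27, also known from Leydig cells, had 22.9, 28.3 and 11.7 in mice A to C against 86.7, 47.2 and 51.5 in mice D to F. Library D was far above E and F, and wild-type C was the lowest. The means were 21.0 ± 8.49 and 61.8 ± 21.7, with a log2 difference of 1.55 (SE 0.34), the widest SE but that of Klk1b22. Without wild-type A and B, the libraries with more islet transcripts, the difference from C alone was 2.25.

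Klk1b22, an epidermal growth factor-binding kallikrein, was the scarcest of the 6. Mice A to C gave 7, 6 and 5 reads against 20, 19 and 14 from D to F, or 6.18, 5.00 and 4.18 against 20.2, 15.7 and 12.4 normalised counts. The groups did not overlap, and the means were 5.12 ± 1.01 and 16.1 ± 3.88 (log2 difference 1.47, SE 0.42). No wild-type library reached the filter of 10 normalised counts, so the gene was fitted only because the libraries labelled mutant were high. With a pseudocount of 8 in place of 1 the difference was 0.87.

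Klk1b24, the third of the Leydig cell kallikreins, had 44.1, 38.3 and 28.4 in mice A to C against 68.6, 65.5 and 57.7 in mice D to F. Its groups did not overlap, and its difference was the smallest of the 4 genes (means 36.9 ± 7.95 and 63.9 ± 5.58, log2 difference 0.79, SE 0.22). In each of the 4 genes library C was the lowest wild type and D the highest library. F was the lowest of those labelled mutant in all but Klk1b27, where E was. Against wild-type C alone, without A and B, the log2 differences were 1.69 for Klk1b21, 1.70 for Klk1b22, 1.14 for Klk1b24 and -0.14 for Klk1b26.

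Klk1b26, the other kallikrein known for processing epidermal growth factor, had 80.3, 103 and 83.5 in mice A to C against 81.7, 72.9 and 72.8 in mice D to F. The groups overlapped through D, and the means of 89.0 ± 12.4 and 75.8 ± 5.08 gave a log2 difference of -0.22 (SE 0.16). Klk1, the kinin-releasing kallikrein itself, was at 25.6, 24.2 and 16.7 in wild type and at 23.2, 24.0 and 24.0 in the libraries labelled mutant (means 22.1 ± 4.77 and 23.7 ± 0.469, log2 difference 0.12, SE 0.28). Its one low value was that of wild-type C, and without wild-type A and B the difference was 0.48. Klk1 is also made by enzyme-secreting cells of the pancreas. The 10 marker genes of those cells, of which only Amy2a5 had no reads in any testis library, summed to 403, 383 and 81.8 in mice A to C and to between 234 and 255 in mice D to F, lowest in the same library as Klk1, and their part in its level was not tested. Klk1 overlaps Gm10109, a pseudogene on the other strand, with no exon bases in common.

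**Figure D1:**
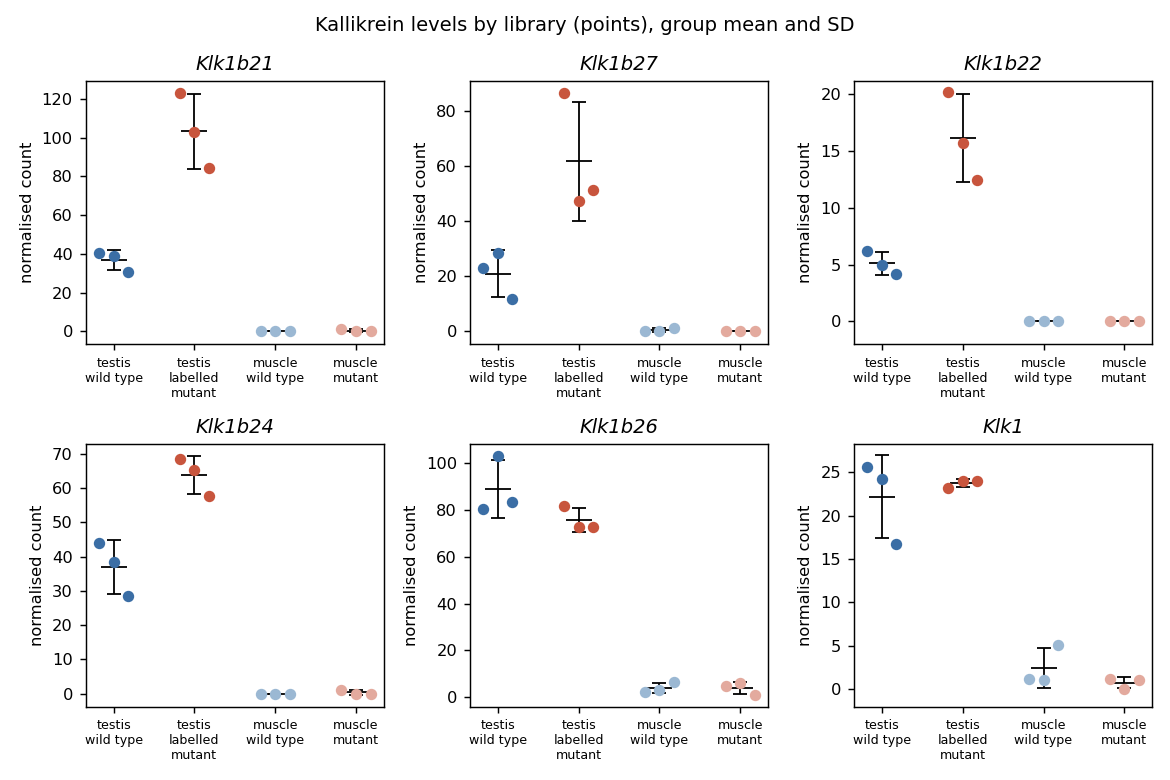
Normalised counts of each kallikrein (vertical axis) in the 4 groups (horizontal axis), with 1 point per library and the group mean and SD as bars. The 3 points of testis labelled mutant lie above all wild-type testis points for Klk1b21, Klk1b27, Klk1b22 and Klk1b24 and overlap them for Klk1b26 and Klk1, and muscle is near 0 throughout.

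In muscle the 6 genes were at the edge of detection, with 3, 4 and 10 reads together from wild-type mice A to C and 7, 6 and 2 from mutant mice D, F and G. The testis libraries held 210 to 400 such reads at a like depth. None of the 6 passed the filter in muscle, so no genotype difference was tested there; 0.0369% of the 16246 genes tested in muscle were called, none a kallikrein. Klk1b26 supplied 10 of the 17 wild-type and 11 of the 15 mutant muscle reads, and Klk1 supplied 6 and 2. Klk1b21 and Klk1b24 had 1 read each, both in mutant D, Klk1b27 had 1 in wild-type C, and Klk1b22 had 0 in all 6 libraries. Muscle libraries also carried transcripts of germ cells, whose 7 markers stood in wild-type muscle at 3.78% of their wild-type testis sum, and of steroid enzymes, at 1.95%. The 6 kallikreins together stood at 3.25%, but unevenly. Klk1 stood at 11.1%, Klk1b26 at 4.47% and Klk1b27 at 2.04%, whereas Klk1b21, Klk1b22 and Klk1b24 stood at 0%. The part of those other testis transcripts in the kallikrein reads of muscle was not tested.

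The make-up of the kallikrein reads differed between the testis groups, but not gene by gene as the levels did. A share depends on the sum of all 6 genes, which holds the members that were higher in the libraries labelled mutant. A lower share is thus not a lower level. Klk1b21 held 16.4% to 18.5% of the reads of the 6 genes in wild-type testis and 27.9% to 31.3% in the libraries labelled mutant. Klk1b26 held 36.5% to 47.6% in wild type, the largest share in each, and 20.3% to 24.0% in those labelled mutant. Its level overlapped between the groups. Klk1 held 9.52% to 11.6% in wild type and 5.75% to 7.92% in those labelled mutant, and its level overlapped too. Klk1b27 went from 6.67% to 11.9% in wild type to 14.4% to 21.5%. The share of Klk1b24 was between 16.1% and 20.1% in all 6 libraries and overlapped between the groups, although its level did not. The ratio of Klk1b21 to Klk1b24 was 0.92, 1.02 and 1.09 in mice A to C against 1.79, 1.57 and 1.46 in mice D to F. The groups did not overlap in this ratio. Both genes were chosen on these libraries, Klk1b21 as a gene called there, so nothing is read from it.

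**Figure D2:**
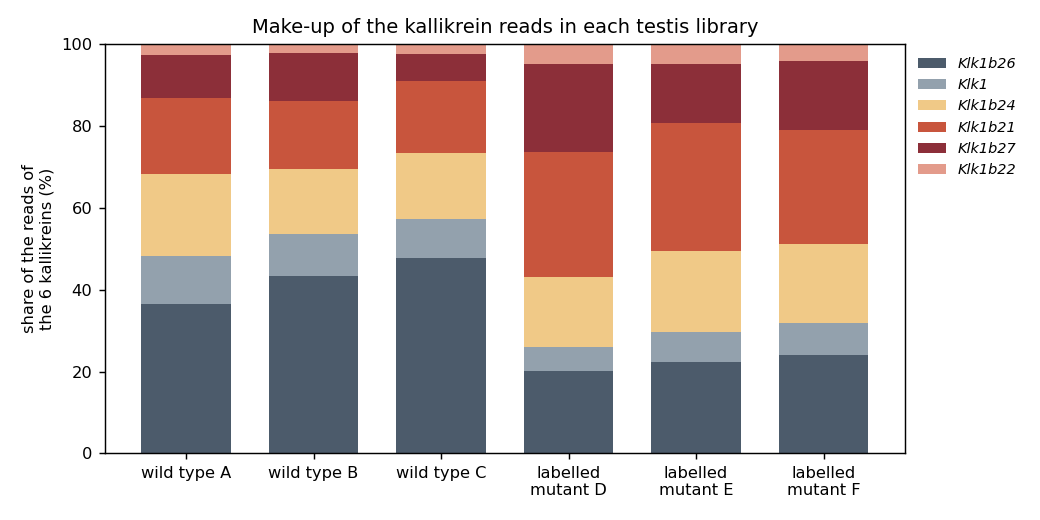
Share of the reads of the 6 kallikreins held by each gene (vertical axis, percent) in the 6 testis libraries (horizontal axis). Klk1b26 is the largest block in the wild types and Klk1b21 the largest in each library labelled mutant, at 27.9% to 31.3%.

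Per kilobase of exon, the level in wild-type testis was highest for Klk1b26 (64.2 ± 8.98 normalised counts per kilobase), followed by Klk1b21 (42.3 ± 6.00), Klk1b24 (42.1 ± 9.06), Klk1b27 (23.6 ± 9.54), Klk1 (20.6 ± 4.43) and Klk1b22 (5.98 ± 1.18). The libraries of neighbours in that order overlapped for Klk1b21 with Klk1b24 and for Klk1b27 with Klk1. In testis labelled mutant Klk1b21 came first on the same scale (119 ± 22.2), then Klk1b24 (72.8 ± 6.36), Klk1b27 (69.5 ± 24.4), Klk1b26 (54.7 ± 3.67), Klk1 (22.0 ± 0.436) and Klk1b22 (18.8 ± 4.54). There Klk1b24, Klk1b27 and Klk1b26 each overlapped the next, as did Klk1 and Klk1b22, while Klk1b21 stood clear of Klk1b24. In muscle each neighbour overlapped the next.

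Of the 31 other genes with a symbol beginning with Klk, 8 passed the filter in testis. By edgeR and DESeq2 0 of the 8 were called, where 3 and 10 of all 19543 genes were. By limma with Benjamini-Hochberg adjustment over all genes 0 of the 8 were called, where 0.0205% of the 19543 genes were. At an unadjusted p below 0.05 there was 1, Klk1b3, where 7.09% of all genes tested were. Means were higher in the libraries labelled mutant for 7 and lower for 1, with a median log2 difference of 0.17 against 0.03 over all genes tested. The split into the 6 members and these 8 was made with the values known, so a contrast between them is no finding.

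Klk1b3, the gamma subunit of the nerve growth factor complex in the submandibular gland, was at 18.5, 30.8 and 13.4 in wild-type testis against 36.3, 38.1 and 27.5 in mice D to F (log2 difference 0.74, SE 0.32, adjusted p = 0.698 by limma). Its groups overlapped through wild-type B and library F. Klk1b16 was at 13.9 ± 0.957 and 21.2 ± 7.60 (log2 difference 0.51, SE 0.36), and Klk1b5 at 23.2 ± 4.15 and 18.7 ± 9.68 (log2 difference -0.42, SE 0.39). The most abundant by normalised count, Klk1b8, was at 361 ± 26.2 and 403 ± 64.6 (log2 difference 0.15, SE 0.12). Klk1b9, another binding protein of epidermal growth factor, was at 92.4 ± 24.6 and 92.6 ± 13.2, with a log2 difference of 0.03 (SE 0.20). The pseudogenes Klk1b7-ps and Klk2-ps and the gene Klk15 had log2 differences of 0.29 (SE 0.18), 0.15 (SE 0.19) and 0.20 (SE 0.39). For all 8 the libraries of the testis groups overlapped.

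In chromosome order the higher testis differences of the genes that passed the filter stood next to each other. From low to high coordinate the 14 kallikrein genes tested began with Klk2-ps, Klk15, Klk1b7-ps, Klk1b8 and Klk1b9, with log2 differences of 0.03 to 0.29, and Klk1b26 at -0.22. The next 6, Klk1b27, Klk1b21, Klk1b22, Klk1b16, Klk1b24 and Klk1b3, had differences of 1.55, 1.46, 1.47, 0.51, 0.79 and 0.74. They were followed by Klk1b5 at -0.42 and Klk1 at 0.12. The gene bodies of that run extend from 44052290 to 44202352. Of the run, Klk1b27, Klk1b21, Klk1b22 and Klk1b24 are members chosen on these testis values, and Klk1b16 and Klk1b3 overlapped between the groups. The run was seen in the values, was not tested and depends on the filter. Klk1b22 passed it only through the libraries labelled mutant, whereas the pseudogene Klk1b23-ps, which lies within the run, did not pass, with 4, 4 and 7 reads in wild type and 0, 1 and 1 in the libraries labelled mutant. Klk1b11, outside the run and also below the filter, had means of 0.556 and 3.60 normalised counts.

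**Figure D3:**
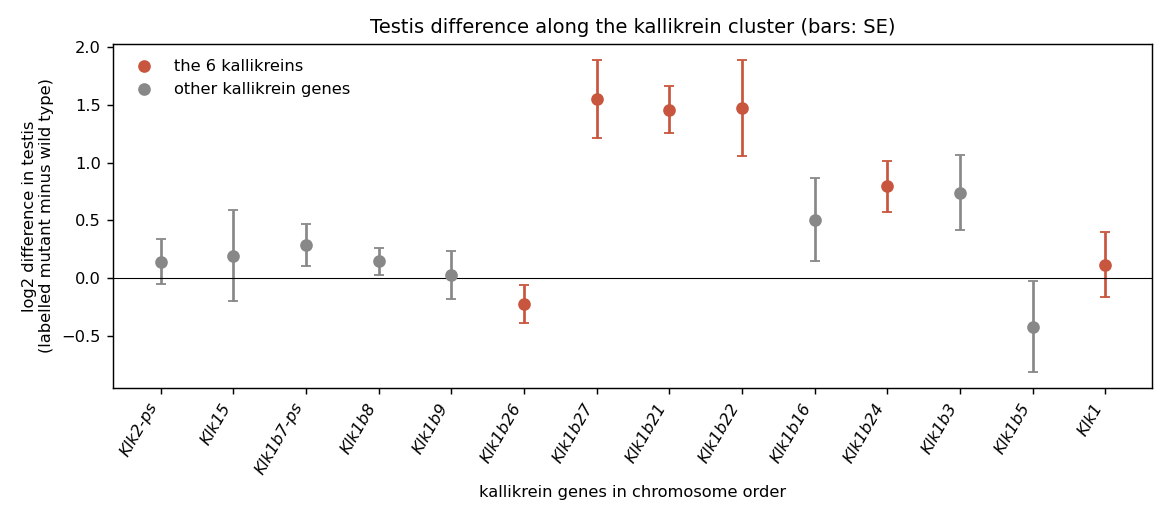
Log2 difference in testis (libraries labelled mutant minus wild type, vertical axis, bars are SE) of the 14 kallikrein genes that passed the filter, in chromosome order and evenly spaced (horizontal axis), with the 6 members in red and other kallikrein genes in grey. The 6 genes from Klk1b27 to Klk1b3 stand at 0.51 to 1.55, and the genes on both sides between -0.42 and 0.29.

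Leydig cell genes were examined because several of these kallikreins are known from those cells. All 17 genes of the list were tested in testis and 0 were called by limma, edgeR or DESeq2. At an unadjusted p below 0.05 there were 4, where 7.09% of all genes tested were. Means were higher in the libraries labelled mutant for 12 and lower for 5, with a median log2 difference of 0.10 against 0.03 over all genes. Cyp17a1, the enzyme that makes androgen precursors, had 1726, 1453 and 1720 in mice A to C against 2607, 2259 and 1803 in mice D to F (log2 difference 0.43, SE 0.11, adjusted p = 0.696). Its libraries did not overlap, with D highest and F lowest of those labelled mutant, as for Klk1b21. Cyp17a1 was the only 1 of the 17 with all libraries labelled mutant above all wild types, where 9.72% of all genes tested were. Por, the electron donor of steroid enzymes, did not overlap in the other direction, at 299, 325 and 320 against 274, 291 and 260 (log2 difference -0.19, SE 0.09, adjusted p = 0.705). Cyp11a1, the enzyme of the first step of steroid synthesis, was at 847 ± 49.7 and 1058 ± 203 (log2 difference 0.30, SE 0.12, adjusted p = 0.696) and overlapped through F.

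Set against these genes, the kallikreins were higher in the libraries labelled mutant. The 17 Leydig cell genes summed to 12863, 12668 and 12476 in mice A to C against 15093, 13895 and 12679 in mice D to F, so that F overlapped the wild types. The 6 kallikreins summed to 1.71%, 1.88% and 1.41% of that in wild type and to 2.67%, 2.36% and 2.39% in mice D to F, without overlap. The mean log2 ratio was -5.92 ± 0.214 and -5.34 ± 0.0986, a difference of 0.58. It was 0.46 against the 6 steroid genes Star, Cyp11a1, Cyp17a1, Hsd3b1, Hsd3b6 and Hsd17b3 alone. Because the kallikreins were chosen for their level in these libraries the ratio carries no test.

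**Figure D4:**
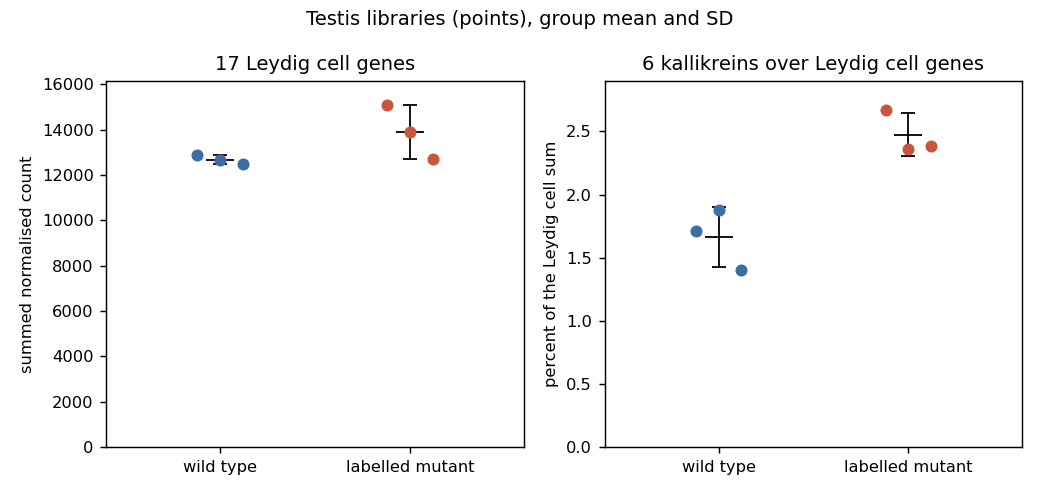
Summed normalised counts of 17 Leydig cell genes (left) and the 6 kallikreins as a percent of that sum (right) in the testis libraries, 1 point each, with group mean and SD. The left groups touch at 12679 in F and 12668 to 12863 in wild-type A and B, and on the right the libraries labelled mutant, at 2.36% to 2.67%, lie above the wild types.

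Of 28 genes of kallikrein substrates, kinin receptors, inhibitors and kinin breakdown with values, 17 were tested in testis and 0 were called by limma, edgeR or DESeq2, with 4 at an unadjusted p below 0.05 beside the same 7.09% of all genes. Means were higher for 10 and lower for 7, with a median log2 difference of 0.04. The kininogen genes Kng1 and Kng2, whose products release kinins, were at 0 to 3.53 and 0.829 to 11.5 normalised counts in the 6 testis libraries. Of the kinin receptor genes, Bdkrb2 was at 9.65 ± 1.87 and 10.7 ± 2.95. Bdkrb1, below the filter and not tested, was at 3.53, 3.33 and 5.01 in wild type against 5.04, 8.29 and 11.5 in the libraries labelled mutant. The groups parted only between 5.01 in wild-type C and 5.04 in library D, so nothing is read from it. Of all genes tested, 9.72% had all libraries labelled mutant above all wild types. The 2 genes with the smallest p were Fn1, which encodes fibronectin (451 ± 30.7 and 352 ± 60.5, log2 difference -0.37, SE 0.12), and Pebp1 (log2 difference 0.11, SE 0.04), both with an adjusted p of 0.696. Serpina5, a serine protease inhibitor that binds tissue kallikrein, was at 700 ± 41.8 and 673 ± 19.0. Of 9 androgen-regulated testis genes with values, 3 had higher and 6 lower means, none was called, and the median log2 difference was -0.04. The 2 with the smallest p were Defb45 (32.3 ± 4.13 and 27.7 ± 1.05) and Pcna (1447 ± 24.1 and 1498 ± 66.5), with log2 differences of -0.21 (SE 0.24) and 0.05 (SE 0.06). The markers Smr2, Mup4 and Smgc of the submandibular gland, the main kallikrein organ, had no reads in any testis library, and all 10 markers of that gland summed to 275 to 317 in wild type and 254 to 368 in the libraries labelled mutant.

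Among 11811 genes with a mean of at least 50, the 5 whose log2 levels were most like the log2 sum of the 6 kallikreins over the 6 testis libraries were Rpl32, Chchd2, Spag5, Pdcd5 and Atp5d, with Pearson's r of 0.993, 0.991, 0.990, 0.989 and 0.988. Their own differences were far smaller, at 0.14 to 0.20 on the log2 scale. Rpl32, a ribosomal protein gene, had 2081, 2090 and 1969 in mice A to C against 2416, 2300 and 2210 in mice D to F. The points are 6 libraries that share the split into 2 groups, so the coefficients carry no p. Of the Leydig cell genes, Cyb5a (r = 0.798) and Cyp17a1 (r = 0.785) came highest, at ranks 789 and 861. Nr5a1 (0.016), Star (-0.0041) and Scarb1 (-0.073) were near 0, and Por was at -0.741, rank 11466. Among the members themselves Klk1b21 and Klk1b22 had an r of 0.996, and Klk1b26 had negative values with all 5 others, from -0.071 with Klk1 to -0.590 with Klk1b22.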

How the data were processed

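The authors deposited signal values, normalised counts made by dividing the reads of each gene by a size factor of its library, with a column for each of the 12 libraries. Dividing by the step of each library gave whole reads for 100% of its values to within 0.001, which supplied the depth. A table of log2 values was deposited too, on the regularised (rlog) scale. Tools listed by the submitters' processing notes, with no roles, are DESeq2 1.46.0, HTSeq 0.11.2, HISAT2 2.1.0, Picard 1.119 and fastp 0.23.4, on GRCm38.p4, and strand handling is not given in the sources used here. In testis library D, 26 values had become dates and those genes were left out of the testis fit, none of them a kallikrein described here.

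Genotypes were compared in each tissue alone by limma 3.58.1 under R 4.3.3 (lmFit and trended eBayes, two-sided tests) on log2(normalised count + 1), for genes with at least 10 in at least 3 of 6 libraries, with Benjamini-Hochberg adjustment over all genes tested and calls below 0.05. P values measure the spread between these mice. Alternatives were other pseudocounts, filters and scalings, rlog values, edgeR 4.0.16 and DESeq2 1.42.0 on recovered reads, and libraries left out. Positions, exon lengths and transcripts were from GENCODE M21, and alignments used Biopython 1.88. Named were the 6 members, other Klk genes with a mean of at least 10 in a tissue, up to 4 called genes or else the 2 with the smallest p in the Leydig, kinin and androgen lists, the 5 genes most like the members, and Bckdk. Genes outside this rule (NeoR, Rps13-ps1, Kng1, Kng2, the kinin receptors, Serpina5, Klk1b11, Klk1b23-ps, other Leydig genes and the gland, pancreas and epididymis markers) were named after their values were seen. The members and lists were chosen with earlier results of these data known.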

Additional observations from a re-analysis of the deposited data

How the results depend on the processing

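The log2 differences of Klk1b21, Klk1b27, Klk1b22 and Klk1b24 kept their direction under every alternative that gave a value. They ranged from 1.22 to 1.69, 1.19 to 2.25, 0.87 to 1.70 and 0.62 to 1.14. Klk1b26 ranged from -0.29 to -0.11, and Klk1 from -0.06, below 0 without wild-type C, to 0.48. The difference of the log2 ratio of kallikreins to Leydig cell genes was 0.76 with means of log2 values and 0.46 to 0.67 with 1 library left out. The sum of the 6 kallikreins differed by 0.71 on the log2 scale, and by 0.65 when reads were scaled to the library totals. In limma, edgeR, DESeq2 and the other alternatives run, no gene of the Leydig, kinin or other kallikrein lists was called in testis.

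In testis 4 genes were called over all genes, Klk1b21, Myo7a, Rps13-ps1 and Gm10167, the last 3 named after their values were seen. The count was 1 with a pseudocount of 0.5, 1 with a mean of at least 50, 2 with TMM within the tissue, 2 with rlog values, 3 with edgeR, 10 with DESeq2, 1 without wild-type A and B, and 1 to 6 with 1 library left out (1 without wild-type A, wild-type B or mutant D). Klk1b21 was called under 3 of 16 alternatives, a pseudocount of 8, no filter and DESeq2. In muscle 6 genes were called, none of them a kallikrein, and 14 with no filter, 34 with DESeq2, 6 with edgeR and 3 to 497 with 1 library left out (497 without mutant D, 10 without wild-type B, 3 without mutant F). The cause of these changes was not tested. No paired analysis was possible because the genotypes compared within a tissue are different mice and the columns carry no replicate numbers. The mice that gave both tissues pair muscle with testis only, which no test here compares. At 5 to 124 reads per testis library for the genes that differed, counting error limits single values, most of all for Klk1b22.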

Other observations

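In muscle the only kallikrein gene past the filter was Klk8, a kallikrein best known from brain and skin. Wild-type mice A to C had 17.1, 27.1 and 16.7 normalised counts against 19.4, 22.4 and 25.9 in the mutants D, F and G (log2 difference 0.17, SE 0.37, adjusted p = 0.881 by limma). In testis Klk8 was at 1.78 to 5.83, so the kallikrein with most reads in muscle was not one of those with most reads in testis. Klk1b11, which lies before Klk1b26 in the cluster, had 9 reads in testis library D and 0 or 1 in each other testis library. It was chosen after its values were seen.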
